A study of Mus musculus with 30 samples.

Results

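Transcript levels in mouse retinal pigment epithelium (RPE) were compared between the morning, zeitgeber time (ZT) 2, and the late light phase, ZT9. The samples were chosen by the time label alone: 10 of the 30 libraries of the series, 5 from ZT2 and 5 from ZT9, each from 1 eye of a different mouse. All were wild-type male C57BL/6 mice aged 10 to 13 weeks, and no mouse was treated or carried a modified allele according to the labels. ZT2 corresponded to a clock time of 9 h and ZT9 to 16 h, and ZT0 is lights-on by convention, which the labels do not state. The other 20 libraries came from ZT0, ZT4, ZT14 and ZT19, again 5 mice each. The retina was peeled from the opened eye and clumps of RPE were then lifted from the choroid with forceps, so that each library held whole tissue, in which fewer cells of a type and less RNA per cell cannot be told apart.

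The RPE is a single layer of pigmented cells behind the photoreceptors. Every morning the ends of rod outer segments are shed, and the RPE binds them through integrin alpha v beta 5, engulfs them after signalling of the receptor kinase MERTK, and digests them in lysosomes. RPE cells also hold a molecular clock, in which the activators BMAL1 (gene Arntl) and CLOCK switch on the Period, Cryptochrome and REV-ERB genes, whose products in turn repress the activators and their targets. The comparison of ZT2 with ZT9 therefore sets a time soon after the shedding burst against a time many hours later, at which the clock is in another phase.

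The values are FPKM, that is, sequenced fragments scaled by transcript length and by the depth of the library. The 10 libraries held an estimated 15.8 to 22.9 M reads (M: mega) and listed 16968 to 18233 genes above 0. Of 51904 genes in the table, 16741 reached 1 FPKM in at least 5 of the 30 libraries and were tested. Libraries of the same time point were no more alike (Pearson r of log2 values across genes 0.847 to 0.905, median 0.88, 20 pairs) than libraries of the 2 different time points (0.849 to 0.907, median 0.881, 25 pairs); the pairs share libraries and the genes are not independent replicates. Transcripts of the RPE were abundant at both times: Rpe65, the retinoid isomerase gene, had a mean of 724 FPKM at ZT2 and 979 FPKM at ZT9, and the visual cycle list summed to 5691 to 10525 FPKM at ZT2 and 8415 to 15131 FPKM at ZT9. Best1, which encodes the RPE chloride channel bestrophin, was listed near 0, with means of 0.845 and 1.19 FPKM, and FPKM alone cannot tell a low level from a failed estimate.

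Transcripts of neighbouring tissues were present in every library and differed between mice. The sum of 16 rod markers was 6103, 4608, 527, 6091 and 390.0 FPKM in the 5 ZT2 mice and 608, 7409, 407, 142 and 1935 FPKM in the 5 ZT9 mice. Replicates 1, 2 and 4 of ZT2 and replicate 2 of ZT9 were thus rich in rod transcripts, and they are called the 4 rod-rich libraries below. Of the rod genes 15 had a lower and 1 a higher mean at ZT9, and none was at 0 in all 10 libraries. Markers of oligodendrocytes, the myelin-forming cells of the optic nerve, summed to 2085 to 4272 FPKM at ZT2 and 806 to 5478 FPKM at ZT9, with 9 of 10 lower in mean at ZT9. Surface epithelium markers (cornea and conjunctiva) summed to 11414 to 19785 FPKM and 3259 to 22289 FPKM, with 18 of 20 lower in mean at ZT9. The ranges of ZT2 and ZT9 overlapped for all 13 marker lists, and the part of these tissues in the results was not tested except where values without the rod-rich libraries or with marker scores as terms are given.

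**Figure D1:**
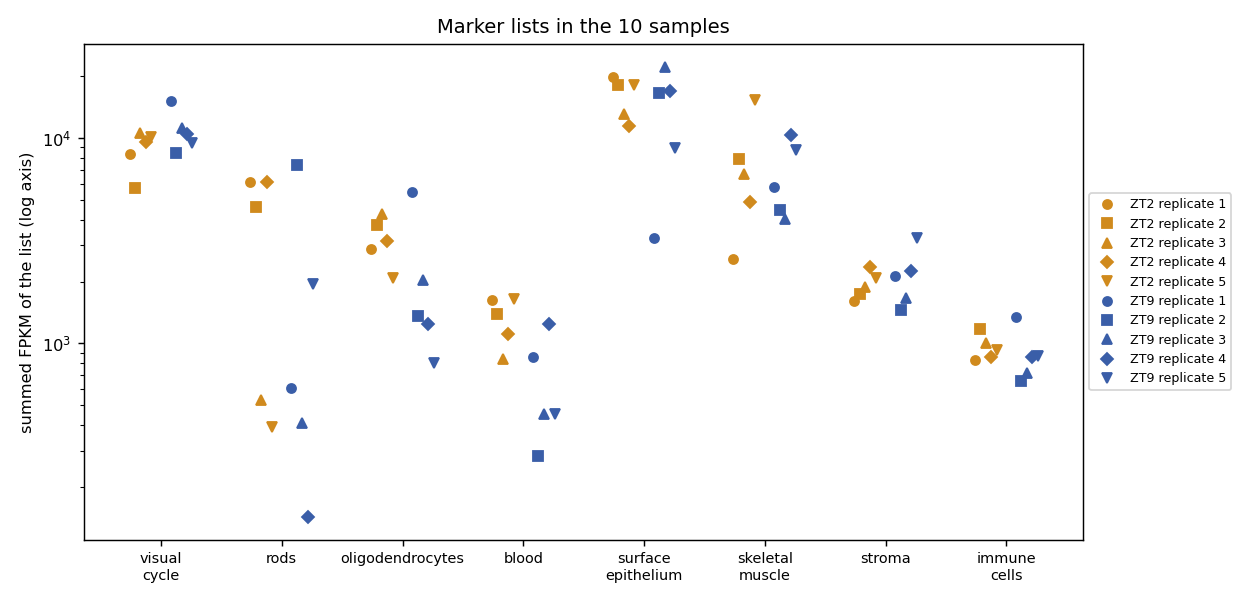
Summed FPKM (log axis) of the visual cycle list and of 7 marker lists of other tissues in each of the 10 samples, orange for ZT2 and blue for ZT9, with 1 symbol per replicate. The rod sum ranges from 142 to 7409 FPKM and splits both time points, while every list overlaps between ZT2 and ZT9.

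Between ZT2 and ZT9, 3 transcripts rose and 1 fell past the threshold, and all 4 belong to the molecular clock. Dbp, Nr1d2 and Per3 were higher at ZT9 (3 of 16741 genes, 0.0179%) and Arntl was lower (1 of 16741, 0.00597%; limma, two-sided, Benjamini-Hochberg adjusted p below 0.05). At an unadjusted p below 0.05, 704 genes differed (4.21%), of which 355 were higher (2.12%) and 349 lower (2.08%). In 105 genes all 5 ZT9 values lay above all 5 ZT2 values (0.627%), and in 75 they lay below (0.448%). The median difference over all tested genes was -0.01 on the log2(FPKM + 1) scale, with a median standard error (SE) of 0.39. On this scale differences of genes at low FPKM are understated.

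**Figure D2:**
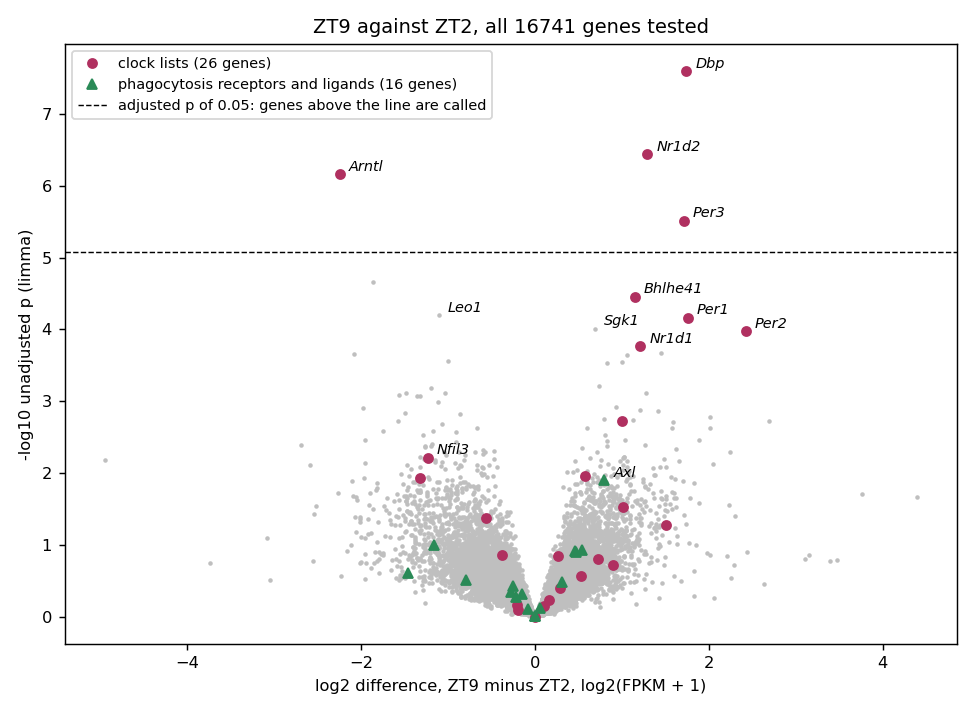
Each point is 1 of the 16741 tested genes, with its log2 difference (ZT9 minus ZT2) on the horizontal axis and -log10 of its unadjusted limma p on the vertical axis. The 4 genes above the dashed line, Dbp, Nr1d2, Per3 and Arntl, are clock genes (dark red), and the 16 receptor and ligand genes of phagocytosis (green triangles) lie well below the line.

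The start regions of the 4 called genes are shown because these genes carry the comparison, 3 of them higher at ZT9 and Arntl lower, with that of Bhlhe41, the clock gene next in order of p. Each window covers 250 bases before to 50 after the transcription start in RefSeq (mouse build GRCm38.p6), printed 5′ to 3′ on the strand of the gene. Capitals mark matches, on either strand, to 3 short motifs: the E-box CACGTG, bound by BMAL1 with CLOCK; the D-box TTATGTAA, bound by DBP and its relatives; and AGGTCA, the core of the site bound by REV-ERB and ROR receptors. The windows are chr7:45704997-45705296 (Dbp, plus strand), chr14:18239057-18239356 (Nr1d2, minus strand), chr4:151044616-151044915 (Per3, minus strand), chr7:113207261-113207560 (Arntl, plus strand, the second of its 2 windows) and chr6:145865371-145865670 (Bhlhe41, minus strand).
Dbp: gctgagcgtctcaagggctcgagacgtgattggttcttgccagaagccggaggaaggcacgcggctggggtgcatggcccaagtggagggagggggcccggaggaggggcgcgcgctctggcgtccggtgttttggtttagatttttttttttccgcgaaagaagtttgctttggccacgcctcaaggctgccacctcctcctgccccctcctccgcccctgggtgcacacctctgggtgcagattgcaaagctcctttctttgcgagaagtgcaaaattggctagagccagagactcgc
Nr1d2: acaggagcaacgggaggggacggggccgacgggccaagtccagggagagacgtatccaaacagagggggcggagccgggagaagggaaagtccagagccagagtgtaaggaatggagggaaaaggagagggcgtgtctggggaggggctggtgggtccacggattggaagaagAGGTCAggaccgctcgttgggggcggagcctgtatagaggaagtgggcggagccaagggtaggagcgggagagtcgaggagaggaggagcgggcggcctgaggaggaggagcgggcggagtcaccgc
Per3: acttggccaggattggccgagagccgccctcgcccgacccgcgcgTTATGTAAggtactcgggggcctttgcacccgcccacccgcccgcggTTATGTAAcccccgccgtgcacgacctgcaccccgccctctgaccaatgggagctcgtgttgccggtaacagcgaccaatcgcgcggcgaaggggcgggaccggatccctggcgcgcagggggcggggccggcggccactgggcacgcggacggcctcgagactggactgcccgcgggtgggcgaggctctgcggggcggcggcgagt
Arntl: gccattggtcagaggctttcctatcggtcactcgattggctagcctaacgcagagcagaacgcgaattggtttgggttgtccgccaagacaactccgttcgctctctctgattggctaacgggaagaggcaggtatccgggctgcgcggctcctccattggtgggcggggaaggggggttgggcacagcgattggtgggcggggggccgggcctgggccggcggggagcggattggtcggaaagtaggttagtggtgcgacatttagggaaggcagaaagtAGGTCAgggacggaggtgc
Bhlhe41: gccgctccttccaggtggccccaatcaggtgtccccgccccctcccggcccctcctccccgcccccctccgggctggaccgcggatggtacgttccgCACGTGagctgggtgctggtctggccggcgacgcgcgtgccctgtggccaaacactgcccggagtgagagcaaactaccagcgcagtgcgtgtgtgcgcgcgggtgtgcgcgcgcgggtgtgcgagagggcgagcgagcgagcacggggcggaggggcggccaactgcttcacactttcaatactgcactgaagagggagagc
Per3 held 2 D-boxes, beginning 205 and 158 bases before its start, against 0.938% of all 32851 windows with at least 1. Arntl held AGGTCA beginning at base 32 after its start and Nr1d2 held it 77 bases before, a motif found in 16.3% of all windows. Of the 2 Arntl windows the first with a match to any motif was printed. Its match was thus fixed by that choice and cannot be set against the share of windows. Bhlhe41 held an E-box 153 bases before its start, a motif in 7.15% of all windows, and the window of Dbp held none of the 3. Counted per gene, 5 of 20 clock genes with a window held an E-box (8.09% of all 27025 genes), 1 of 20 a D-box (1.11%) and 5 of 20 AGGTCA (18.1%). The ends of the motifs share letters, but in the 5 printed windows no match overlaps another. A match describes these letters in this window and is not a measured binding site.

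Dbp (ENSMUSG00000059824, chromosome 7, 45705088 to 45710203 in mm10, plus strand) encodes a transcription factor that carries the clock's phase to output genes. It measured 72.9, 45.5, 88.5, 96.8 and 69.4 FPKM in the ZT2 mice and 273, 233, 253, 257 and 210 FPKM in the ZT9 mice. Every ZT9 mouse was above every ZT2 mouse, with a wide gap between the groups. The mean rose 3.29-fold, from 74.6 ± 19.8 to 245 ± 24.4 FPKM (SD, n = 5), a log2 difference of 1.74 ± 0.23 (SE; limma, adjusted p = 0.000422). Of its exon bases 18% are shared with Sphk2 on the opposite strand, and since it is not stated whether counting used strand, reads there cannot be assigned. Sphk2 itself had means of 20.8 FPKM at ZT2 and 15.4 FPKM at ZT9.

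Nr1d2 (ENSMUSG00000021775, chromosome 14, 18204054 to 18239127, minus strand) encodes REV-ERB beta, a nuclear receptor that represses Arntl. Its values were 22.1, 17.1, 25.7, 31.6 and 19.4 FPKM at ZT2 and 61.3, 60.9, 54.8, 49.7 and 58.7 FPKM at ZT9. The groups were far apart and each was narrow. The mean rose 2.46-fold, from 23.2 ± 5.70 to 57.1 ± 4.87 FPKM (SD, n = 5; log2 difference 1.29 ± 0.20, adjusted p = 0.00302). Its paralogue Nr1d1, which encodes REV-ERB alpha, had a difference of 1.21 ± 0.28 and did not pass (adjusted p = 0.26), although its ZT9 values (62.2 to 81.4 FPKM) all lay above its ZT2 values (24.5 to 35.0 FPKM). Of the exon bases of Nr1d1, 8.55% are shared with Thra on the opposite strand.

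Per3 (ENSMUSG00000028957, chromosome 4, 151003652 to 151044665, minus strand) is a Period gene of the repressing arm. It measured 4.98, 4.81, 4.38, 5.40 and 5.97 FPKM at ZT2 and 15.5, 17.2, 23.5, 20.5 and 19.1 FPKM at ZT9. The ZT2 mice were nearly equal, and every ZT9 mouse was above all of them. The mean rose 3.75-fold, from 5.11 ± 0.604 to 19.2 ± 3.05 FPKM (SD, n = 5; 1.71 ± 0.30, adjusted p = 0.0129). Its call was lost when ZT2 replicate 2, ZT2 replicate 3 or ZT9 replicate 3 was left out (adjusted p = 0.0534, 0.0648 and 0.0641), with differences of 1.64 to 1.7.

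Arntl (ENSMUSG00000055116, chromosome 7, 113207465 to 113314126, plus strand) encodes BMAL1 and ran the opposite way. It measured 21.6, 11.0, 13.6, 15.2 and 20.6 FPKM in the ZT2 mice and 1.47, 4.05, 3.57, 1.37 and 3.28 FPKM in the ZT9 mice. No ZT9 mouse reached the lowest ZT2 value. The mean was 5.97-fold lower at ZT9, falling from 16.4 ± 4.58 to 2.75 ± 1.24 FPKM (SD, n = 5; log2 difference -2.25 ± 0.35, adjusted p = 0.00384). Arntl was not called with a pseudocount of 0.1 (adjusted p = 0.286).

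**Figure D3:**
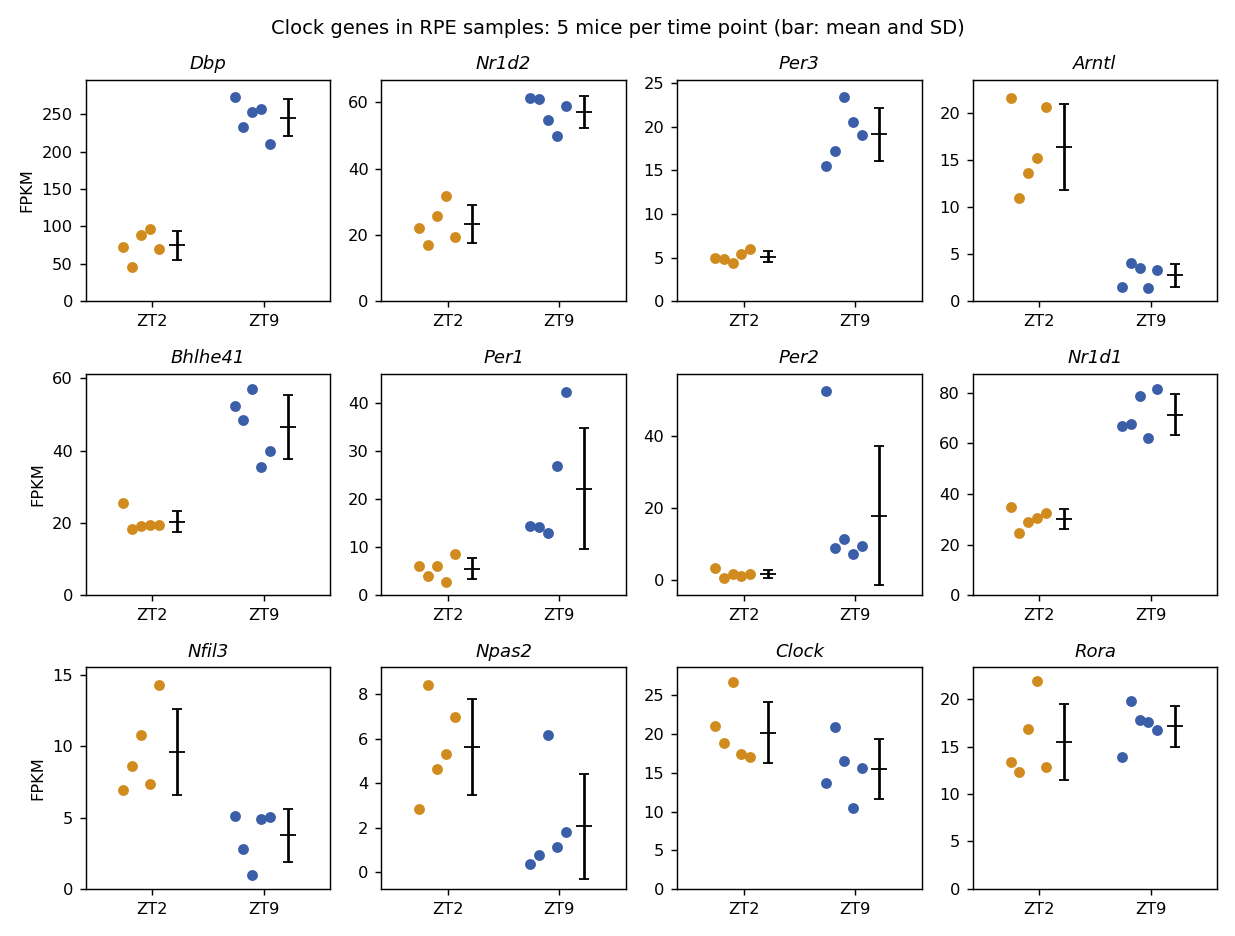
FPKM of 12 clock genes in each ZT2 mouse (orange) and ZT9 mouse (blue), 5 per time point, with a bar for the mean and SD; each panel has its own linear axis. Dbp, Nr1d2, Per3, Bhlhe41, Per1, Per2 and Nr1d1 do not overlap and are higher at ZT9, Arntl and Nfil3 do not overlap and are lower, and Npas2, Clock and Rora overlap.

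Dbp, Nr1d2 and Arntl stayed called in limma whichever of the 10 mice was left out. Without the 4 rod-rich libraries, which leaves 2 ZT2 and 4 ZT9 mice, 0 genes were called in limma, with 228 higher and 266 lower before adjustment (p below 0.05). The differences were then 1.65 ± 0.31 for Dbp, 1.29 ± 0.27 for Nr1d2, 1.74 ± 0.44 for Per3 and -2.44 ± 0.50 for Arntl (SE), with adjusted p from 0.277 to 0.832.

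The 5 clock lists hold 26 genes, all of which were tested. Of these 3 rose and 1 fell, 10 were higher and 4 lower before adjustment (p below 0.05), and in 8 the ZT9 mice lay above and in 2 below all ZT2 mice. The shares over all genes are those given above. The median difference of the 26 was 0.55, against -0.01 over all genes. These genes are known rhythmic ones and were listed with earlier results of these libraries known, so the counts describe them and are no separate support.

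Among the 8 repressors of the core clock Per3 rose, and 5 others were higher at an unadjusted p below 0.05 without passing the adjusted threshold. Per1 ranged from 2.75 to 8.47 FPKM at ZT2 and from 13.0 to 42.4 FPKM at ZT9 (log2 difference 1.76 ± 0.38, adjusted p = 0.145). Per2 had the largest estimate of the repressors, 2.42 ± 0.54 (adjusted p = 0.178). It measured 3.45, 0.731, 1.7, 1.24 and 1.82 FPKM at ZT2 and 52.6, 8.89, 11.6, 7.31 and 9.55 FPKM at ZT9, so that 1 ZT9 mouse stood far above the other 4 and all 5 were above the ZT2 mice. Bhlhe41, whose product DEC2 competes with BMAL1 and CLOCK for E-boxes, ranged from 18.2 to 25.5 FPKM and from 35.4 to 57 FPKM (1.15 ± 0.23, adjusted p = 0.0976). It passed in limma in 1 of 24 alternative settings, with libraries weighted by their quality (adjusted p = 0.0206). Of the exon bases of Bhlhe41, 19% are shared with a gene on the opposite strand. Its relative Bhlhe40 had a smaller estimate, 0.57 ± 0.21, again with no overlap between the groups.

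Cry2, a Cryptochrome gene, had means of 10.2 ± 1.92 FPKM at ZT2 and 23.6 ± 13.7 FPKM at ZT9 (SD, n = 5; 1.00 ± 0.29, adjusted p = 0.838), with 1 ZT9 mouse at 47.3 FPKM. The other Cryptochrome gene, Cry1, could not be read: 1 ZT2 mouse was at 256 FPKM and 1 ZT9 mouse at 80.3 FPKM, and the remaining 8 lay between 5.86 and 31.1 FPKM. Ciart, a repressor gene also called Chrono, had an estimate of 0.90 ± 0.68 with overlapping groups.

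The activators other than Arntl had smaller differences. Clock, the partner of BMAL1, measured 20.2 ± 3.97 FPKM at ZT2 and 15.4 ± 3.88 FPKM at ZT9 (SD, n = 5; -0.38, 95% interval -0.89 to 0.13), and its difference was -0.59 ± 0.36 without the 4 rod-rich libraries. Npas2, which can take the place of CLOCK, measured 2.83, 8.42, 4.65, 5.32 and 7.00 FPKM at ZT2 and 0.375, 0.781, 6.19, 1.14 and 1.81 FPKM at ZT9. In 4 of the 5 ZT9 mice Npas2 was below all ZT2 mice, and in replicate 3 it was not (-1.32 ± 0.49, adjusted p = 1). Arntl2, the paralogue of Arntl, was below 10 FPKM except in ZT9 replicate 4, where it was 61.3 FPKM.

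The ROR receptors activate Arntl at the sites where REV-ERB represses it. Rora and Rorb had differences of 0.16 and -0.21, neither of which passed, and their groups overlapped. Rora was -0.03 with 5 marker scores as terms, and Rorb was 0.36 without the 4 rod-rich libraries, so their direction depended on the setting.

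In the output branch, Dbp rose and its relatives Tef and Hlf had estimates in the same direction: 1.01 ± 0.44 and 0.72 ± 0.50, with overlapping groups. Without the 4 rod-rich libraries Tef had 0.34 ± 0.60 and Hlf 0.87 ± 0.72. Nfil3, which encodes the repressor E4BP4 that competes with DBP for D-boxes, ran the other way. It measured 6.93, 8.63, 10.8, 7.36 and 14.3 FPKM at ZT2 and 5.11, 2.77, 0.942, 4.90 and 5.04 FPKM at ZT9, with no overlap (-1.23 ± 0.42, adjusted p = 1). Among genes for turnover of clock proteins, Csnk1d, Csnk1e, Fbxl21 and Btrc had estimates from -0.00 to 0.53, none of which passed at an unadjusted p below 0.05.

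The means at all 6 time points show where ZT2 and ZT9 stood in the daily course of the 4 called genes. Dbp had means of 47.8 ± 12.7, 74.6 ± 19.8, 133 ± 32.7 and 245 ± 24.4 FPKM at ZT0, ZT2, ZT4 and ZT9 (SD, n = 5 each), and 124 ± 37.9 and 68.9 ± 17.1 FPKM at ZT14 and ZT19. Nr1d2 had means of 18.2 ± 5.79, 23.2 ± 5.70, 33.8 ± 6.50 and 57.1 ± 4.87 FPKM over the same light-phase times, then 51.3 ± 12.3 and 26.5 ± 1.41 FPKM. For Per3 the means were 6.51 ± 4.47, 5.11 ± 0.604, 7.53 ± 3.15 and 19.2 ± 3.05 FPKM, then 17.4 ± 1.16 and 8.53 ± 2.61 FPKM. For Arntl they were 19.5 ± 5.82, 16.4 ± 4.58, 11.0 ± 1.90 and 2.75 ± 1.24 FPKM, then 2.22 ± 2.06 and 12.5 ± 2.34 FPKM. Dbp, Nr1d2 and Per3 thus had their highest mean at ZT9, and Arntl had its lowest at ZT14. At the other end, Dbp and Nr1d2 had their lowest mean at ZT0 and Per3 at ZT2, and Arntl had its highest at ZT0.

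The change from ZT2 to ZT9 was also tested against the change over the interval from ZT14 to ZT19, which shares no mouse with it. The test asks only whether the 2 changes are unequal. A gene that changes as much or more in the dark phase, in the other direction, passes it too, so passing does not make a change particular to the light phase. The intervals last 7 h and 5 h. The difference between the intervals passed for 7 of 16741 genes (0.0418%), and 1111 genes had an unadjusted p below 0.05 (6.64%). The 7 were Arntl, Dbp, Nr1d1, Nr1d2, Per2, Per3 and E130114P18Rik. Arntl fell by 2.25 over the light-phase interval and differed by 2.32 in the other direction over the dark-phase one, so that the intervals differed by -4.56 ± 0.50 (SE; limma, adjusted p = 1.1e-05). Per2 had the largest positive value: 2.42 by day, -3.15 by night, a difference of 5.57 ± 0.76 (adjusted p = 0.000234). For Dbp, Nr1d2, Per3 and Nr1d1 the differences were 2.57 ± 0.32, 2.19 ± 0.28, 2.70 ± 0.42 and 2.06 ± 0.40, with adjusted p of 6.87e-05, 6.87e-05, 0.00173 and 0.0377. Their changes by night were -0.83, -0.90, -0.99 and -0.85, also opposite to those by day. Arntl, Dbp, Nr1d2 and Per2 passed in all 23 alternatives that give this difference, and Per3 in 22, all but the one without the 4 rod-rich libraries (adjusted p = 0.122). Nr1d1 passed in 8 of the 23 and in 0 of the 10 limma fits that leave out a ZT2 or ZT9 mouse, with adjusted p from 0.0135 to 0.405 over the 23.

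**Figure D4:**
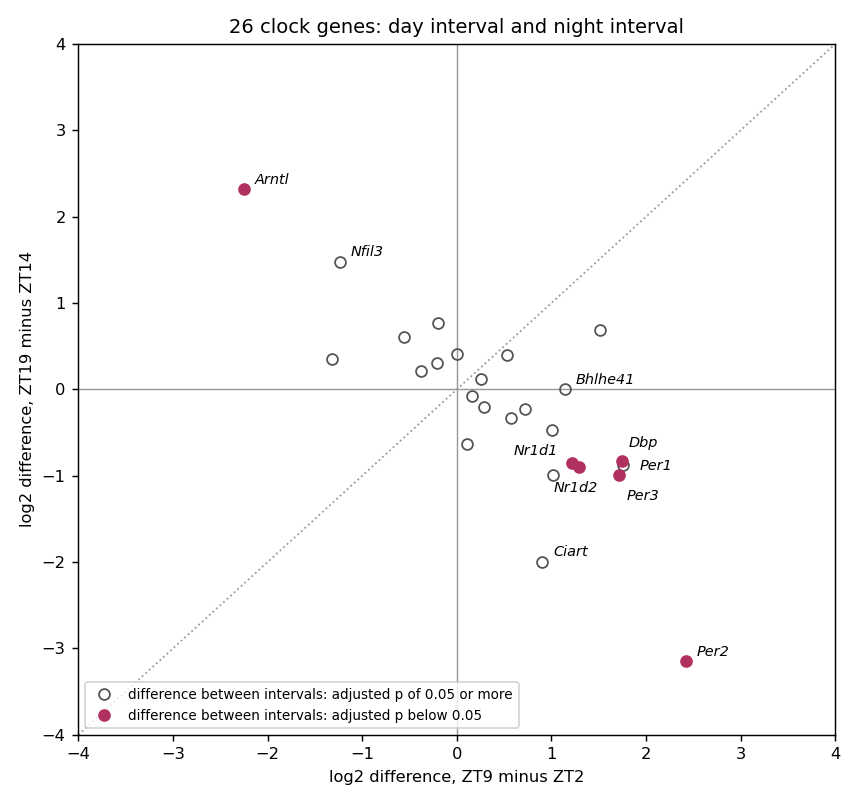
Log2 difference of each of the 26 clock genes from ZT2 to ZT9 (horizontal) and from ZT14 to ZT19 (vertical); the dotted line marks equal differences and filled points are the 6 genes whose intervals differ at an adjusted p below 0.05. Arntl lies at the upper left, and Per2, Per3, Dbp, Nr1d2 and Nr1d1 lie at the lower right. All filled points thus go opposite ways in the 2 intervals, while Bhlhe41 is at 0.00 on the vertical axis.

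E130114P18Rik was the 1 gene of the 7 outside the clock lists. It was low throughout, with 5.25, 7.18, 2.78, 3.33 and 4.13 FPKM at ZT2 and 4.90, 0, 1.24, 0.637 and 0.902 FPKM at ZT9, where a listed 0 can be a failed estimate. Its light-phase difference, -1.34 ± 0.54, did not pass (adjusted p = 1). The interval difference was -3.97 ± 0.76 (adjusted p = 0.0377), and it passed in 4 of the 22 alternatives that tested it, among them 1 of the 10 fits that leave out a ZT2 or ZT9 mouse. Another alternative, in which it did not pass, left out ZT14 replicate 3, a library that listed 537 genes at 0 with a median of at least 10 FPKM over all libraries, against 3 to 22 such genes in the ZT2 and ZT9 libraries.

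The receptors of outer segment phagocytosis showed no called difference between the morning and the late light phase. Of 10 listed receptors 9 were tested and 0 passed. At an unadjusted p below 0.05 there was 1 of 9 (4.21% over all genes), and the median difference was 0.31. Timd4, the tenth, did not reach the filter, with means of 0.433 and 0.662 FPKM. Mertk, the kinase that triggers ingestion, measured 15, 13.2, 11.3, 17.8 and 11.0 FPKM at ZT2 and 30.0, 14.0, 20.4, 17.9 and 20.5 FPKM at ZT9. The groups overlapped, and the difference of 0.54 had a 95% interval from -0.14 to 1.22. Without the 4 rod-rich libraries it was 0.91 ± 0.47 (SE; adjusted p = 1 in limma). Axl, a kinase of the same family, was the receptor with the smallest p. It measured 43.8, 42.0, 65.9, 64.4 and 46.3 FPKM at ZT2 and 112, 68.3, 110, 62.3 and 115 FPKM at ZT9, with 4 of 5 ZT9 mice above all ZT2 mice (0.80, interval 0.18 to 1.41, adjusted p = 1). Tyro3, the third member of that family, had -0.15, interval -0.59 to 0.29.

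The integrin that binds outer segments is built from the products of Itgav and Itgb5. Itgav had a mean of 106 ± 33.6 FPKM at ZT2 and 142 ± 22.6 FPKM at ZT9 (0.46, interval -0.13 to 1.06), and Itgb5 had 91.8 ± 28.6 and 78.0 ± 24.5 FPKM (SD, n = 5; -0.21, interval -0.91 to 0.48). The scavenger receptor genes Cd36 and Scarb1 had 0.31 and 0.48, Lrp1 had -0.26, and Adgrb1, a receptor for exposed phosphatidylserine, had -1.17 with a wide interval from -2.57 to 0.24. Adgrb1 was highest in the rod-rich libraries, with 20.9, 7.13 and 26.4 FPKM in the 3 of ZT2 and 16.8 FPKM in the 1 of ZT9. Without these libraries its difference was -0.69 ± 0.87, and those of Itgb5, Cd36 and Lrp1 were -0.41 ± 0.46, 0.07 ± 0.43 and -0.12 ± 0.38.

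Of 7 bridging ligand genes all were tested, 0 passed and 0 had an unadjusted p below 0.05, with a median of -0.08. Gas6, a ligand of the MERTK family, had close values at both times: 154, 156, 173, 166 and 186 FPKM at ZT2 and 145, 149, 167, 186 and 238 FPKM at ZT9 (0.06, interval -0.33 to 0.46). Pros1, the gene of the other ligand, protein S, had 0.00, interval -0.52 to 0.52. Mfge8, which links phosphatidylserine to the integrin, measured 74.3 ± 25.0 and 67.0 ± 7.57 FPKM (SD, n = 5; -0.08, interval -0.66 to 0.50), and 0.42 ± 0.38 without the rod-rich libraries. A difference of 1 on the log2 scale, in either direction, thus lay outside the intervals of these 3 ligands, and of Anxa5 (-0.39 to 0.40).

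Tub and Tulp1, whose products can bridge outer segments to MERTK, varied with the rod markers. Tulp1 measured 186, 101, 5.84, 129 and 5.84 FPKM at ZT2 and 14.2, 173, 0.263, 8.58 and 21.9 FPKM at ZT9. Its 4 high libraries were the 4 rod-rich ones at both times. The difference was -1.46, with an interval from -3.99 to 1.07, and without these libraries it was 0.24 ± 1.46 (SE). Tub had -0.79, and -0.41 ± 1.00 without them.

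**Figure D5:**
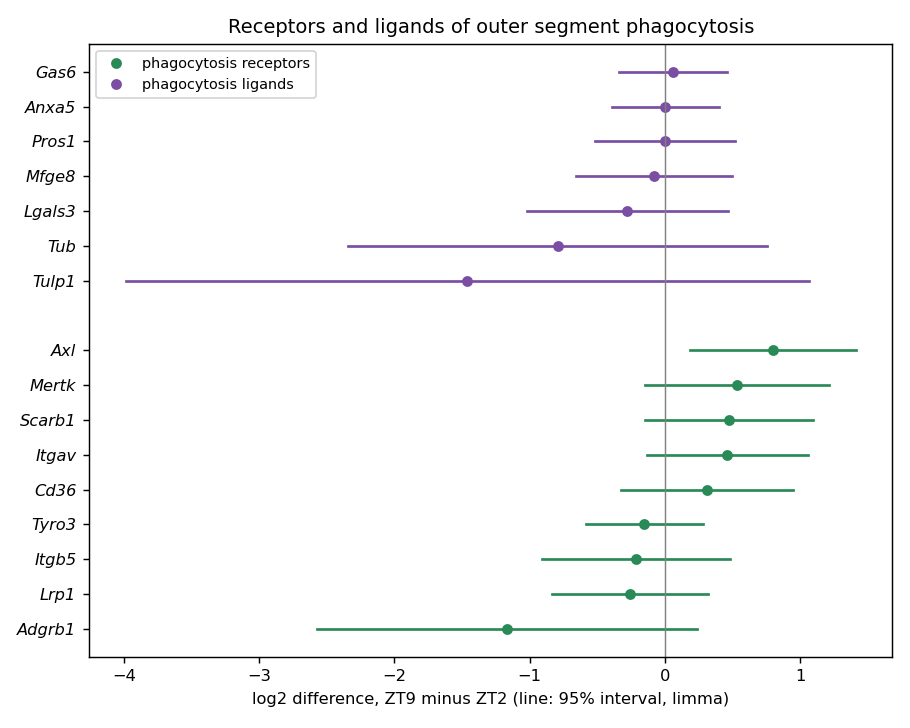
Log2 difference (ZT9 minus ZT2) with its 95% limma interval for the 9 tested receptor genes (green) and 7 ligand genes (purple) of outer segment phagocytosis. The intervals of all genes but Axl include 0, and those of Tulp1 and Tub are the widest among the ligands.

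Inside the cell, engulfed outer segments pass through the engulfment machinery to lysosomes. Of 16 engulfment genes listed, 15 were tested (Myo2a was not matched) and 0 passed. At an unadjusted p below 0.05, 1 was higher (2.12% over all genes). That gene, Gulp1, an adaptor of engulfment receptors, had means of 31.8 ± 14.4 and 56.2 ± 9.52 FPKM (SD, n = 5; 0.91 ± 0.33, adjusted p = 1). Myo7a, the myosin that carries phagosomes and melanosomes, had 21.0 and 24.7 FPKM (0.21 ± 0.31), and Rac1, a GTPase of the phagocytic cup, 223 and 224 FPKM. In the list for LC3-associated phagocytosis, the non-canonical autophagy route for outer segments, 0 of 12 passed and 0 had an unadjusted p below 0.05, from -0.29 for Atg5 to 0.58 for Cybb. Rubcn, the regulator that this route needs, measured 12.5, 12.3, 12.9, 21.3 and 14.5 FPKM and then 19.1, 19.4, 19.8, 18.0 and 19.8 FPKM. Its ZT9 mice were nearly equal, and 4 of 5 ZT2 mice were below them (0.39, interval -0.07 to 0.86).

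No lysosomal gene was called. Of 30 tested, 0 passed in limma, and 1 was higher and 1 lower before adjustment (p below 0.05; 2.12% and 2.08% over all genes). The median difference was 0.05 with a median SE of 0.21. Ctsd, the cathepsin that degrades rhodopsin, measured 849 ± 133 and 953 ± 132 FPKM (SD, n = 5; 0.17 ± 0.16). Tfeb, the master regulator of lysosome genes, had 36.0 and 38.7 FPKM. Mcoln1, a lysosomal calcium channel gene, had -0.90 ± 0.36, from 62.8 ± 22.5 to 33.3 ± 12.1 FPKM, and Mitf, a transcription factor of pigment cells, had 0.79 ± 0.30 (adjusted p = 1 for both). None of 21 autophagy genes passed and 0 had an unadjusted p below 0.05, with differences from -0.21 to 0.28.

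In the visual cycle, the pathway that regenerates the visual pigment, 0 of 14 genes passed in limma. At an unadjusted p below 0.05, 1 was higher (2.12% over all genes). Positive estimates were 12 of 14 (8081 of 16741 over all genes). The median was 0.30. Lrat, the enzyme that esterifies retinol, measured 123, 77.1, 163, 164 and 128 FPKM at ZT2 and 301, 216, 248, 206 and 185 FPKM at ZT9. The groups did not overlap (0.84 ± 0.29, adjusted p = 1), and without the rod-rich libraries the difference was 0.67 ± 0.41. Rrh, which encodes the opsin peropsin, was the other member without overlap. It had 79.9 ± 11.7 and 116 ± 18.9 FPKM (SD, n = 5), a log2 difference of 0.53 ± 0.26 (SE), and was named after its values were seen. Over all genes 0.627% separated with ZT9 above. Rdh11, a retinol dehydrogenase, had the opposite sign (-0.51 ± 0.27).

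The lists of other RPE functions also held no called gene. For melanogenesis 0 of 14 passed and 2 were higher at an unadjusted p below 0.05, Mitf and Tyr, the latter encoding tyrosinase (0.86 ± 0.37). For ion and metabolite transport 0 of 23 passed and 2 were higher at that level, while 19 of 23 estimates were positive (8081 of 16741 over all genes). Slc6a6, the taurine transporter, measured 127, 132, 132, 163 and 143 FPKM at ZT2 and 238, 245, 257, 180 and 255 FPKM at ZT9, with no overlap (0.74 ± 0.26, adjusted p = 1), and Slc26a7, an anion exchanger, had 0.77 ± 0.33. Of 17 tested genes for growth factors and secreted proteins 0 passed and 2 were higher at that level. Ctgf, a matricellular growth factor, measured 89.5, 81.7, 131, 157 and 91.2 FPKM at ZT2 and 323, 84.7, 295, 344 and 419 FPKM at ZT9. In 4 of 5 ZT9 mice it was far above the ZT2 mice, and ZT9 replicate 2 lay among them. It did not pass in limma with all mice (1.28 ± 0.34, adjusted p = 0.574). It passed in 1 of 24 alternatives, the one without that replicate (1.68, adjusted p = 0.011). Leaving out the low value raises the difference by itself, so this pass is no separate support. Of the exon bases of Ctgf, 23.2% are shared with Gm15270 on the opposite strand. The other secreted gene was Angptl7 (0.94 ± 0.37).

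Glucocorticoid hormone follows a daily rhythm, and genes that respond to it formed another list. Of its 18 genes 0 passed, and 4 were higher at an unadjusted p below 0.05 (2.12% over all genes): Per1, described above, Sgk1, Tsc22d3 and Klf9. Sgk1, a kinase that controls ion channels, measured 175, 176, 229, 212 and 172 FPKM at ZT2 and 371, 299, 271, 268 and 354 FPKM at ZT9, with no overlap (0.69 ± 0.15, adjusted p = 0.178). Tsc22d3, which encodes the glucocorticoid-induced protein GILZ, measured 32 ± 7.71 and 71.8 ± 32.9 FPKM (SD, n = 5; 1.06 ± 0.25, adjusted p = 0.268). Fkbp5 (0.35 ± 0.36) and the metallothionein genes Mt1 (0.09) and Mt2 (-0.05), which also respond to glucocorticoids, differed by less than their SE.

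Metabolic and stress lists held no called gene, and few members had an unadjusted p below 0.05 (4.21% over all genes). In lipid oxidation and ketone synthesis, which can use the fatty acids of engulfed outer segments, this was 0 of 26. In cholesterol synthesis it was 0 of 25 and in cholesterol efflux 0 of 9. Of the 25 synthesis genes 20 had negative estimates (8634 of 16741 over all genes), among them Msmo1 (-0.41 ± 0.20). Glycolysis had 1 of 16, Pfkp, which was lower at ZT9 with no overlap (-0.83 ± 0.36, and -0.55 ± 0.52 without the rod-rich libraries), and the respiratory chain 0 of 16. The endoplasmic reticulum list had 1 of 23, Sdf2l1, a component of a chaperone complex. It measured 16.1, 20.6, 25.2, 16.3 and 15.8 FPKM at ZT2 and 13.0, 8.67, 7.16, 6.07 and 4.65 FPKM at ZT9, with no overlap (-1.20 ± 0.31, adjusted p = 0.574). Heat shock genes had 0 of 20, antioxidant genes 0 of 18, receptors for adenosine, dopamine and melatonin 0 of 9, immediate early genes 1 of 21 (Btg2, -0.69 ± 0.30) and cold-inducible genes 1 of 3 (Srsf5, -0.31 ± 0.15).

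In the cell cycle list 0 of 32 genes passed, and at an unadjusted p below 0.05, 3 were higher and 4 lower at ZT9 (2.12% and 2.08% over all genes). The G1 cyclin genes Ccnd1 (0.55 ± 0.18) and Ccnd2 (0.67 ± 0.28) and the mitotic inhibitor gene Wee1 (0.86 ± 0.35), a known clock target, were the higher ones. Of the exon bases of Ccnd1, 23.4% are shared with LTO1 on the opposite strand. Cdk1, the kinase that drives mitosis, measured 42.4, 54.4, 26.6, 21.2 and 42.2 FPKM at ZT2 and 6.41, 15.1, 12.1, 6.46 and 6.43 FPKM at ZT9. The groups did not overlap (-1.90 ± 0.76, adjusted p = 1), nor did those of the checkpoint gene Bub1b (-1.32 ± 0.55). The remaining lower genes, Bub1 (-1.67 ± 0.76) and Pcna (-0.41 ± 0.20), were named after their values were seen. Surface epithelium, which renews itself throughout life, was present in the same libraries, and its part in these values was not tested by itself. Tissue marker scores were terms in 1 of the 24 alternatives. Over all 24 the differences ran from -2.40 to -1.27 for Cdk1 and from -1.56 to -0.61 for Bub1b. They ran from 0.39 to 0.64 for Ccnd1, from 0.51 to 0.79 for Ccnd2 and from 0.40 to 0.98 for Wee1. These ranges do not single out the fit with marker scores.

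Beyond the lists, further genes were named because they separated the groups in every mouse without passing the threshold. The separation was thus a condition of the choice. Over all 16741 genes, 0.627% separated with ZT9 above and 0.448% with ZT9 below. Leo1, a subunit of the PAF1 elongation complex, measured 23.4, 18.6, 21.3, 19.3 and 19.2 FPKM at ZT2 and 9.85, 15.3, 7.01, 5.39 and 9.54 FPKM at ZT9 (-1.11 ± 0.24, adjusted p = 0.145). It passed in limma in 2 of 24 alternatives, with libraries weighted by quality (adjusted p = 0.0185) and without ZT9 replicate 2 (adjusted p = 0.0235). That replicate held the highest ZT9 value of Leo1, so leaving it out enlarges the difference by itself. Gnl3l, a nucleolar GTPase gene, had 12.3 to 13.5 FPKM at ZT2, where the 5 mice were nearly equal, and 20.8 to 37.2 FPKM at ZT9 (1.01 ± 0.24, adjusted p = 0.288). Trim32, a ubiquitin ligase gene, had 5.63 to 16.4 FPKM and 22.8 to 34.8 FPKM (1.45 ± 0.34, adjusted p = 0.268). Pts, which makes the tetrahydrobiopterin cofactor, and Mest, an imprinted gene, completed the higher side at 0.74 ± 0.19 and 0.93 ± 0.26, and 23.1% of the exon bases of Mest are shared with Copg2 on the opposite strand. Pts had 0.34 ± 0.25 without the rod-rich libraries.

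On the lower side stood Gtf2a2, a subunit of the general transcription factor TFIIA (-1.0 ± 0.24), the cytochrome P450 gene Cyp4f13 (-1.03 ± 0.27), the actin-binding protein gene Cotl1 (-1.36 ± 0.36), the cytokine gene Il18 (-1.12 ± 0.31), Phb, which encodes prohibitin (-0.69 ± 0.23), and the ubiquitin-conjugating enzyme gene Ube2l3 (-0.60 ± 0.20). Babam1, a subunit of a BRCA1 complex, measured 209, 221, 54.6, 124 and 90.1 FPKM at ZT2 and 48.1, 44.3, 32.7, 49.0 and 45.1 FPKM at ZT9 (-1.48 ± 0.39). Its ZT2 mice were widely spread and its ZT9 mice were not, and the difference was -0.69 ± 0.51 without the rod-rich libraries. Fam104a (-0.66 ± 0.20) and Tprn (-1.26 ± 0.41) were the remaining 2. Of their exon bases, 42.6% in Fam104a and 28.6% in Ube2l3 are shared with genes on the opposite strand. Adjusted p of these 9 genes lay between 0.288 and 1.

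Of 5 tested blood markers 0 passed in limma, and 4, all haemoglobin genes, were lower at ZT9 at an unadjusted p below 0.05 (2.08% over all genes). Hba-a1 measured 437, 289, 172, 294 and 357 FPKM at ZT2 and 181, 71.8, 88.2, 273 and 119 FPKM at ZT9, so that 3 of 5 ZT9 mice were below all ZT2 mice (-1.18 ± 0.38, adjusted p = 1). Hba-a2, Hbb-bs and Hbb-bt had -1.18, -1.15 and -1.29. Without the rod-rich libraries Hba-a1 had -0.71 ± 0.52, Hba-a2 -0.66 ± 0.58, Hbb-bs -0.86 ± 0.55 and Hbb-bt -0.82 ± 0.68, with unadjusted limma p from 0.13 to 0.268. These genes have near-identical copies, between which reads cannot be assigned with certainty. The list summed to 835 to 1646 FPKM at ZT2 and 281 to 1236 FPKM at ZT9. Among the markers of immune cells 0 of 15 passed, and 2 were lower at an unadjusted p below 0.05 (2.08% over all genes). These were C1qa (-0.70 ± 0.30) and Tyrobp (-0.63 ± 0.29), which had -0.39 ± 0.36 and -0.41 ± 0.42 without the rod-rich libraries. Glul, an enzyme gene of Müller glia in the inner retina list, had no overlap, with 531 to 593 FPKM at ZT2 and 605 to 761 FPKM at ZT9 (0.32 ± 0.13, adjusted p = 1). Most of that list went the other way, with 4 positive and 9 negative estimates and a median of -0.46. Fn1 of the stroma list, which encodes fibronectin, was lower at ZT9 by the unadjusted test (-0.59 ± 0.21), and no other stroma, endothelium, mural, lens or skeletal muscle marker had an unadjusted p below 0.05. The stroma list had 9 positive and 4 negative estimates, with a median of 0.06.

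The median SE of a tested gene was 0.39 on the log2 scale with 5 mice per time point, and over the phagocytosis, lysosome and autophagy lists it was between 0.21 and 0.30. Differences of 0.80 in Axl, 0.91 in Gulp1 and -0.90 in Mcoln1 had an adjusted p of 1 in limma, so differences of this size in these genes did not pass. A count of 0 in lists of this length is near the share of 0.0239% called over all genes and says nothing about the lists as such.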

How the data were processed

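RNA from 30 RPE samples had been sequenced as single reads. The deposited values are FPKM that the authors computed, 1 per gene and sample, with commas as decimal marks; FPKM is named in the title of the table. STAR, Cufflinks, DESeq2 and the build mm10 stand in the submitters' processing notes without versions or roles. The annotation, the use of strand and the treatment of shared reads are not given in the sources used here. Animal number and eye in the column names matched each column to 1 sample, and each animal number is a separate mouse. No counts were used. Depth is an estimate, not a deposited count: for genes with a single transcript, low FPKM values rise in steps worth 1 read each. Gene positions are those of GENCODE M21 (GRCm38, the assembly of mm10).

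Genes with at least 1 FPKM in at least 5 of 30 samples were kept. Values of log2(FPKM + 1) were fitted with limma 3.58.1 (R 4.3.3) with 1 mean per time point over all 30 samples, so that all share 1 estimate of the spread, and with a mean-variance trend. The contrasts were ZT9 minus ZT2, and this minus the contrast of ZT19 with ZT14. P-values are two-sided and adjusted over the 16741 genes by Benjamini-Hochberg, with a threshold of 0.05. Intervals are 95% limma intervals. The script was tested on simulated data with known changes; most large changes were recovered, and in some draws false calls exceeded the share that the threshold allows.

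The samples compared and the 42 gene lists were chosen with earlier results of these data known, so list counts are descriptions and no list was tested. Named were all clock, receptor and ligand genes, every called gene, the genes next in order of p (up to 12 per direction, groups not overlapping, higher mean at least 5 FPKM), and from each other list the member with the smallest p and up to 4 more with an unadjusted p below 0.05. Genes named beyond this are marked, and some that the rule selects are not reported here. Promoter windows come from RefSeq GRCm38.p6 and were searched on both strands. Alternatives were other pseudocounts, filters and scalings, no trend, only the 10 samples, array weights, 5 tissue marker scores, eye or animal number run as terms, and each ZT2 and ZT9 mouse left out. Leaving out the 4 rod-rich libraries (rod sum above 3000 FPKM) was added after seeing the data. The cut was applied to ZT2 and ZT9 only, and all libraries of ZT0, ZT4, ZT14 and ZT19 stayed in that fit whatever their rod sum.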

Additional observations from a re-analysis of the deposited data

Results flagged for a closer look

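In 11 of 208 pairs of a named gene and a time point, 1 mouse stood apart from the other 4 on the log2 scale by Dixon's test; chance flags about 1 in 20 groups, which is about this many. At ZT9 these were Per2 in replicate 1 (52.6 FPKM, others 7.31 to 11.6), Babam1 in replicate 3 (32.7, others 44.3 to 49.0), Il18 in replicate 1 (15.5, others 28.6 to 34.7), Slc6a6 in replicate 4 (180.0, others 238 to 257), Ctgf in replicate 2 (84.7, others 295 to 419) and Rgcc, an endothelium marker, in replicate 5 (38.1, others 13.4 to 17.7). At ZT2 they were Bhlhe41 in replicate 1 (25.5 FPKM, others 18.2 to 19.5), the adenosine receptor gene Adora2b in replicate 2 (6.77, others 19.4 to 21.2), the glutathione peroxidase gene Gpx1 in replicate 4 (382, others 487 to 510.0), Wee1 in replicate 3 (7.07, others 4.13 to 4.34) and the muscle gene Mybpc1 in replicate 1 (18.4, others 77.6 to 113).

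For 7 genes the change from ZT2 to ZT9 differed from that from ZT14 to ZT19 in limma. The differences on the log2 scale were 5.57 for Per2, 2.70 for Per3, 2.57 for Dbp, 2.19 for Nr1d2 and 2.06 for Nr1d1, and -3.97 for E130114P18Rik and -4.56 for Arntl.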

How the results depend on the processing

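No paired analysis was possible because every mouse has its own animal number and none is shared across time points. Dbp, Nr1d2 and Per3 were called higher with the deposited values, and 2 to 4 genes were under every other setting, those that leave out 1 mouse included, except that 0 were in limma without the 4 rod-rich libraries (228 at an unadjusted p below 0.05). The count called lower was 0 with a pseudocount of 0.1, with only the 10 samples, with 5 marker scores and without the rod-rich libraries (314, 476, 379 and 266 unadjusted), 2 with no filter, no trend or eye as a term, 3 with array weights, and 1 to 2 with each mouse left out. For the interval difference the count was 18 with 5 marker scores, 4 without the rod-rich libraries and 5 to 8 with each mouse left out; it was 9 without ZT14 replicate 3. Only the 10 samples give no interval value.

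Of the called genes, Dbp lost its call only without the rod-rich libraries (1.65, adjusted p = 0.277, over 24 alternatives), and Nr1d2 there and with only the 10 samples (adjusted p = 0.394 and 0.0614). Arntl lost it under those 2 settings (adjusted p = 0.394 and 0.0614), with a pseudocount of 0.1 (0.286) and with 5 marker scores (0.0517). Per3 lost it without the rod-rich libraries (adjusted p = 0.832), with 5 marker scores (0.177) and without ZT2 replicate 2 (0.0534), ZT2 replicate 3 (0.0648) or ZT9 replicate 3 (0.0641). Adjusted p ranged over the alternatives from 0.000166 to 0.277 for Dbp, from 0.000333 to 0.394 for Nr1d2, from 0.00209 to 0.832 for Per3 and from 0.000211 to 0.394 for Arntl. With only the 10 samples Nr1d1 passed (adjusted p = 0.0284). Over the 104 named genes 2431 of 2492 alternative values kept direction and call; the cause of the others was not tested.

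The direction reversed in 13 named genes, none of them called. With 5 marker scores as terms this was so for Rora (-0.032), Cd36 (-0.015), Pros1 (-0.22), Mfge8 (0.23), Tulp1 (0.35), Lgals3 (0.16), the cone opsin gene Opn1sw (0.077) and Btrc (0.00026). Without the rod-rich libraries it was so for Rorb (0.36), Btrc (0.18), Mfge8 (0.42), Tulp1 (0.24) and Opn1sw (0.37). Btrc, near 0 throughout, also reversed with a pseudocount of 0.1 (0.0023), quantile normalization (0.023), array weights (0.055) and eye as a term (0.011), Pros1 with a pseudocount of 0.1 (-5.8e-05), median scaling (-0.012) and array weights (-0.016), and Anxa5 with median scaling (-0.0081), array weights (-0.010) and eye (-0.024). With each mouse left out the differences ran from -0.67 to 0.62 for Cry1, from -0.49 to 0.015 for Rorb, from -0.016 to 0.21 for Csnk1d, from -0.086 to 0.17 for Btrc, from -0.050 to 0.13 for Gas6, from -0.15 to 0.14 for Pros1, from -0.28 to 0.064 for Mfge8 and from -0.17 to 0.090 for Anxa5. Scaling by median ratio or by quantiles put the median of all genes at -0.03 and 0.01.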

Other observations

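Single mice carried values far from all others in genes of the clock lists, given here as values. Cry1, a Cryptochrome gene, measured 256 FPKM in ZT2 replicate 5, against 6.35, 21.9, 9.03 and 31.1 FPKM in the other ZT2 mice, and its difference went from -0.20 to 0.62 without that mouse. Arntl2 measured 61.3 FPKM in ZT9 replicate 4, against 0.425 to 8.42 FPKM in the other ZT9 mice. Oligodendrocyte and myelin markers were highest in ZT9 replicate 1 at 5478 FPKM, the mouse that also had the lowest sum of surface epithelium markers at 3259 FPKM.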
